A study of Mus musculus with 6 samples.

Results

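The lipid-sensing nuclear receptors and the Hnf4 genes were examined in the colon of mice that were prone (OP) or resistant (OR) to diet-induced obesity. The 10 genes were chosen by symbol and are *Ppara*, *Ppard*, *Pparg*, *Rxra*, *Nr1h2*, *Nr1h3*, *Nr1i2*, *Vdr*, *Hnf4a* and *Hnf4g*. All 10 were among the 17778 gene symbols of the deposited table, and all 10 passed the filter on low values that left 13520 genes for the test. The 6 mice were wild-type male C57BL/6J mice, 21 weeks old, and each of them had eaten the high-fat diet (HFD, 60% fat) for 16 weeks. The 3 OP mice came from the 10 animals with the most weight gain among 42 on the HFD, and the 3 OR mice from the 10 with the least. OP and OR mice therefore differ in phenotype and not in genotype or diet, and no mouse on a normal diet was analysed here. The position of the tissue piece along the colon was not given in the sources used here.

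Nuclear receptors are transcription factors that are switched by small lipophilic ligands and bind DNA at repeats of a short hexamer. Most of these receptors bind as heterodimers with a retinoid X receptor, for which *Rxra* encodes the alpha form, whereas HNF4 proteins bind as homodimers or as heterodimers with each other. In the gut, PPARs respond to fatty acids, LXRs (*Nr1h2*, *Nr1h3*) to oxysterols, PXR (*Nr1i2*) to foreign compounds and bile acids, and the vitamin D receptor (*Vdr*) to calcitriol and lithocholic acid. HNF4A and HNF4G maintain the differentiated state of the intestinal epithelium.

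Levels are FPKM, which divides the fragments of a gene by transcript length and library size, so levels of different genes can be set side by side. Read totals are not given, and the depth of each mouse and its counting error are unknown. The FPKM values of a mouse summed to between 585350 and 600028, and the number of genes above 0 ranged from 16287 to 16619. Epithelial markers were abundant in every mouse, with a summed FPKM of 12 markers between 15293 and 29085. Much of this range came from *Car1*, which ran from 1054.43 in OP mouse 2 to 15723.03 in OR mouse 2. *Epcam*, another of the 12, lay between 934.63 and 1187.94. Each mouse is 1 library, and the p-values set the difference between OP and OR mice against the spread between mice.

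The values are gene totals over all transcripts of a gene. *Hnf4a* has 2 start sites in the RefSeq promoter table, 40298 bases apart on chromosome 2, and both are known to be used in the intestine. The 100 bases before each start are shown because the deposited value of *Hnf4a* cannot be divided between them. They are written 5′ to 3′ on the plus strand of GRCm38.p6, an earlier build than the authors' GRCm39, at chr2:163506757-163506856 for the upstream start and chr2:163547055-163547154 for the downstream start.
Hnf4a upstream start: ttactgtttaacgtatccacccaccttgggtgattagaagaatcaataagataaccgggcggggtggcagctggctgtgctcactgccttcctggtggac
Hnf4a downstream start: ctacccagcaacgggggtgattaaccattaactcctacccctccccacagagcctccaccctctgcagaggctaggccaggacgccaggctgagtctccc
Neither stretch held AGGTCA. Of the bases, 52% were G or C in the upstream and 62% in the downstream stretch, against a median of 55% in the same 100 bases of all 32851 promoter windows.

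The receptors bind repeats of AGGTCA, and the promoter windows, from 250 bases before to 50 bases after the start, were searched for this hexamer on both strands. Windows were found for 9 of the 10 genes, and *Hnf4g* was not among them. The hexamer occurred in 3 of the 14 windows, in *Pparg* and *Rxra*, against 16.3% of all windows. The stretches with the site in capitals and 12 bases on either side are given 5′ to 3′ on the plus strand, on which both genes lie.
Pparg, chr6:115361104-115361133: agccgccgcctcAGGTCAgagtcgccccgg
Pparg, chr6:115362328-115362357: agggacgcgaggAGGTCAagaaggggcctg
Rxra, chr2:27709193-27709222: tagaaatgggtgTGACCTgagtaatggtca
Rxra, chr2:27709232-27709261: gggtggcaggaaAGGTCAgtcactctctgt
The 2 sites of *Pparg* lie at different start sites of the gene, and the 2 sites of *Rxra* lie in 1 window on opposite strands. Exact direct repeats of AGGTCA with a spacing of 1, 3 or 4 bases, which contain the single hexamer, and the HNF4 motif CAAAGTCCA were found in 0 of the 14 windows. Over all windows these were rare, at 0.0396%, 0.00609%, 0.0152% and 0.475%. A match or its absence describes the letters in these windows and says nothing of binding.

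Paralogous receptors can be confused in short reads, and the transcripts of the 10 genes in GENCODE M21 were compared for this. In 9 of the 10 genes 0 stretches of 50 bases occurred in a transcript of any other gene, and in *Ppard* 8 of 7599 did, in *Ankrd11*. No stretch of this length was shared between any of the 10 receptors, so a read of 50 bases or more without mismatches could be placed among them.

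*Hnf4a* had the highest level of the 10 genes and *Hnf4g* the lowest by the mean of the 6 mice. *Hnf4a* ranked between 275 and 306 of the 17778 genes in each mouse, and *Vdr* between 386 and 790. *Hnf4a* lay above *Vdr*, and *Vdr* above *Ppard*, in 6 of 6 mice, and in both cases the lowest value of the first exceeded the highest value of the second. *Ppard*, *Pparg*, *Nr1i2*, *Rxra* and *Nr1h2* followed with mean FPKM over the 6 mice between 45.1 and 66.9, and each of these overlapped with its neighbour in the order. *Nr1h2* in turn lay above *Ppara* in every mouse, with 39.56 as its lowest FPKM against 31.07 as the highest of *Ppara*. *Ppara*, *Nr1h3* and *Hnf4g* formed the low end, with mean FPKM of 17.7, 14.4 and 11.2 and overlapping ranges.

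**Figure D1:**
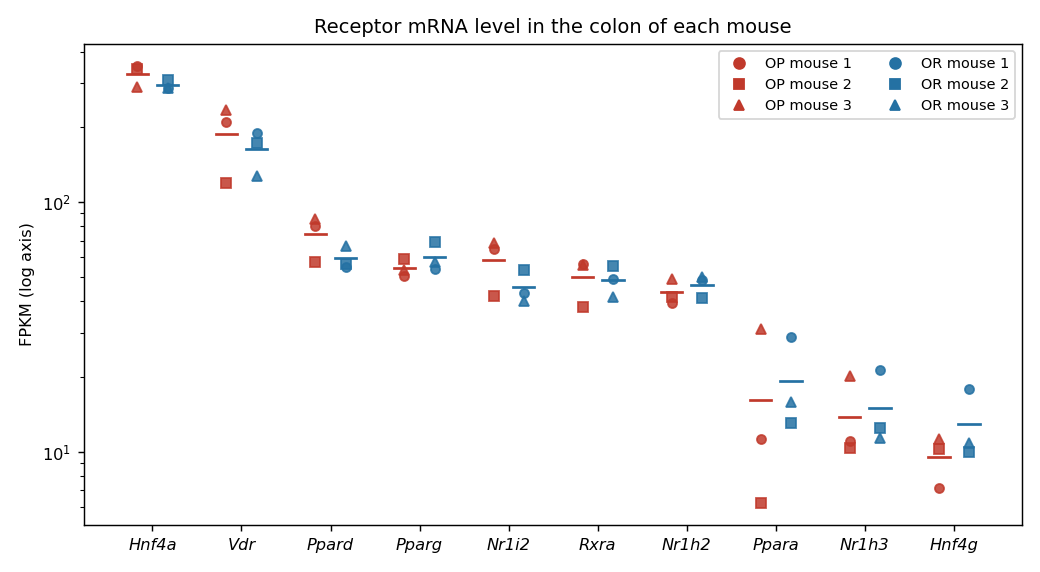
FPKM on a log axis of the 10 receptor genes in the 3 OP mice (red) and 3 OR mice (blue), ordered by the mean of the 6 mice. Each symbol is 1 mouse and each bar the mean of a group. The symbols of OP and OR mice overlap in all 10 genes, and *Ppara* has the widest spread, from 6.23 to 31.07.

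In the comparison of OP with OR mice, 0 of the 10 receptor genes passed the thresholds of the study, a q-value below 0.2 together with a ratio no smaller than 1.2 or no larger than 0.83 (limma-trend with Benjamini-Hochberg adjustment over 13520 genes). Over all genes tested, 0.0222% passed. The study set these thresholds on DESeq2 results and reported more genes that differed, so the counts here are not those of its test. At an unadjusted p below 0.05 the count was also 0 of 10, against 4.03% of all genes, and the groups were without overlap in 0 of 10, against 8.44% of all genes (1.63% with OP above OR and 6.81% with OP below OR). The median log2 fold change OP/OR on the log2(FPKM + 1) scale was -0.04 over the 10 genes and -0.10 over all genes tested, with 5 receptor genes above 0 and 5 below. With median-of-ratios scaling the median of all genes moved to 0.01, and the receptor genes had 8 above and 2 below 0 with a median of 0.10. The share of all genes above 0 was 29.9% as deposited and 52% after this scaling. The smallest adjusted p among the 10 genes was 0.945. The two-sided exact permutation p lay between 0.2 and 0.8, where 3 mice against 3 cannot give less than 0.1.

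**Figure D2:**
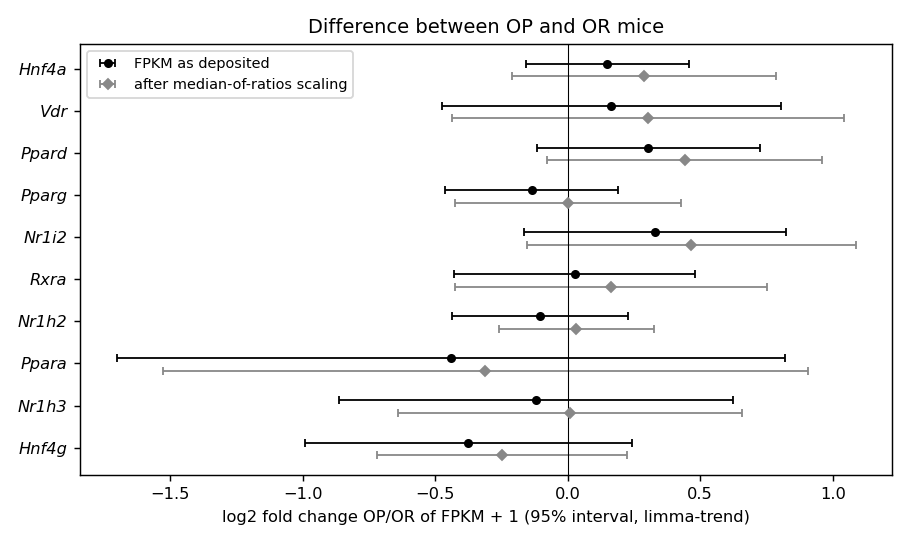
Log2 fold change OP/OR of FPKM + 1 with its 95% interval from limma-trend, for the FPKM values as deposited (black) and after median-of-ratios scaling (grey). All intervals include 0, and that of *Ppara* is the widest, from -1.70 to 0.82 as deposited.

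Among the fatty acid receptors, *Ppard* is the widely expressed PPAR that is prominent in crypt epithelium. *Ppard* measured 80.54, 57.33 and 85.36 FPKM in OP mice 1 to 3 against 54.83, 56.59 and 66.97 FPKM in OR mice 1 to 3. OP mice 1 and 3 were above all OR mice, and OP mouse 2 lay within the OR range. The means were 74.4 ± 15.0 in OP and 59.5 ± 6.56 in OR mice (SD, n = 3), with a log2 fold change of 0.30 (standard error 0.18, 95% interval -0.12 to 0.72, adjusted p = 0.945). Without OP mouse 2 the log2 fold change was 0.48, with an unadjusted limma-trend p of 0.0145 and an adjusted p of 0.772, and without OP mouse 3 it was 0.20. With array weights, which weight each mouse by its spread, it was 0.16.

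*Pparg*, the PPAR of differentiated colonocytes and adipocytes, measured 50.7, 59.41 and 53.54 FPKM in OP mice 1 to 3 against 54.12, 68.96 and 57.64 FPKM in OR mice 1 to 3. OP mice 1 and 3 were below all OR mice, OP mouse 2 lay within the OR range, and only OR mouse 2 stood above the OP range. The means of 54.6 ± 4.44 and 60.2 ± 7.75 (SD, n = 3) gave a log2 fold change of -0.14 (standard error 0.14, 95% interval -0.46 to 0.19), which became 0.00 with median-of-ratios scaling. On the ratio scale the 95% interval allowed values of FPKM + 1 in OP mice from 0.726 to 1.14 times those in OR mice.

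*Ppara*, the receptor of the fasting and fatty acid oxidation response, varied most among the 10 genes. Its FPKM was 11.23, 6.23 and 31.07 for OP mice 1 to 3 against 28.94, 13.09 and 15.79 for OR mice 1 to 3. The highest and the lowest mouse were both OP mice and differed 4.99-fold, and the coefficient of variation was 81.2% in OP and 44.0% in OR mice. The log2 fold change of -0.44 had a standard error of 0.54 and a 95% interval of -1.70 to 0.82. It was -1.03 without OP mouse 3, with an unadjusted limma-trend p of 0.0368 and an adjusted p of 0.515, 0.04 without OP mouse 2 and -0.12 without OR mouse 1. It was -0.66 without OR mouse 2, so mice of both groups moved its size.

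*Rxra*, the shared partner of the PPARs, LXRs, PXR and VDR, measured 56.58, 37.97 and 56.2 FPKM in OP mice 1 to 3 against 49.29, 55.48 and 41.83 FPKM in OR mice 1 to 3. The lowest value was again that of OP mouse 2. The means were 50.3 ± 10.6 and 48.9 ± 6.83 (SD, n = 3), and the log2 fold change was 0.03 (standard error 0.19, 95% interval -0.43 to 0.48).

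The oxysterol receptors showed a steadier and a more variable member. *Nr1h2*, which encodes the widely expressed LXR beta, measured 39.56, 41.61 and 49.13 FPKM in OP mice 1 to 3 against 48.57, 41.43 and 50.23 FPKM in OR mice 1 to 3. The 6 values lay within 1.27-fold, and the log2 fold change was -0.10 (standard error 0.14, 95% interval -0.44 to 0.23), or 0.03 with median-of-ratios scaling. *Nr1h3*, which encodes the LXR alpha of macrophages, liver and intestine, measured 11.02, 10.34 and 20.15 FPKM in OP mice 1 to 3 against 21.31, 12.46 and 11.33 FPKM in OR mice 1 to 3. OP mouse 3 and OR mouse 1 had values near 20 and the other 4 mice between 10.34 and 12.46. The log2 fold change of *Nr1h3* was -0.12 (standard error 0.32, 95% interval -0.86 to 0.62), and it was 0.01 with median-of-ratios scaling.

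*Nr1i2* encodes PXR, which controls drug-metabolising enzymes and transporters. It measured 64.79, 42.11 and 68.33 FPKM in OP mice 1 to 3 against 43.36, 53.2 and 40.29 FPKM in OR mice 1 to 3. As in *Ppard*, OP mice 1 and 3 were above all OR mice and OP mouse 2 was not. The means were 58.4 ± 14.2 and 45.6 ± 6.74 (SD, n = 3), and the log2 fold change was 0.33 (standard error 0.21, 95% interval -0.17 to 0.82, adjusted p = 0.945). It was 0.54 without OP mouse 2, with an unadjusted limma-trend p of 0.0129 and an adjusted p of 0.772, and it was 0.20 without OP mouse 3 and 0.24 without OP mouse 1.

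*Vdr* measured 209.5, 119.55 and 232.83 FPKM in OP mice 1 to 3 against 189.17, 171.96 and 127.38 FPKM in OR mice 1 to 3. OP mouse 2 and OR mouse 3 were low, and the OP mice spanned the whole OR range. The log2 fold change was 0.16 (standard error 0.27, 95% interval -0.48 to 0.80), from -0.02 to 0.46 with each mouse left out.

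*Hnf4a* measured 351.24, 339.98 and 289.67 FPKM in OP mice 1 to 3 against 287.53, 309.01 and 285.15 FPKM in OR mice 1 to 3. OP mice 1 and 2 were above all OR mice, whereas OP mouse 3 lay within the OR range. The 6 values differed by at most 1.23-fold, the smallest spread of the 10 genes, and the log2 fold change was 0.15 (standard error 0.13, 95% interval -0.16 to 0.46). Its paralogue *Hnf4g* measured 7.13, 10.26 and 11.23 FPKM in OP mice 1 to 3 against 17.82, 10 and 10.8 FPKM in OR mice 1 to 3. OR mouse 1 was high and OP mouse 1 low, and the log2 fold change was -0.38 (standard error 0.26, 95% interval -0.99 to 0.24). It was -0.13 without OR mouse 1 and -0.20 without OP mouse 1.

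**Figure D3:**
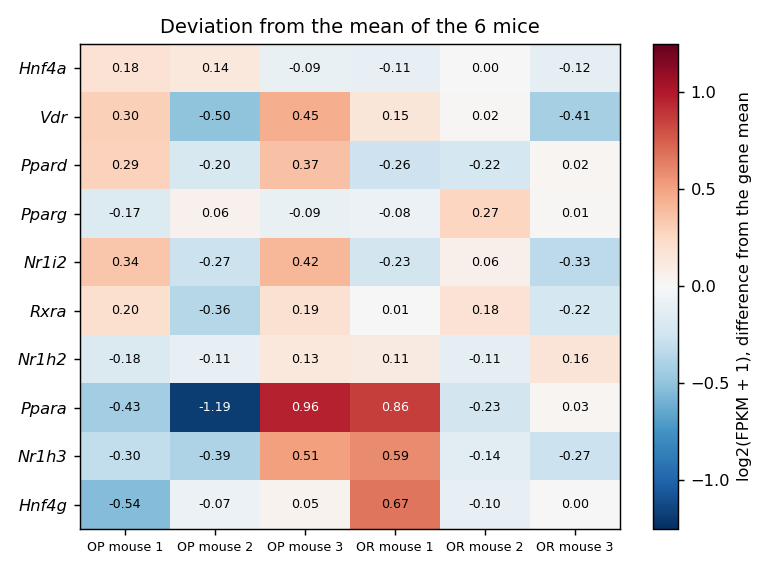
Deviation of log2(FPKM + 1) from the mean of the 6 mice for each receptor gene, with the value printed in each cell (red above, blue below the mean). OP mouse 2 has the lowest value in 4 of the 10 genes, OP mouse 1 in 3, and OP mouse 3 has the highest in 4 of the 10.

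Several receptors had their highest or lowest value in the same mice. OP mouse 2 had the lowest value of the 6 mice in *Ppara*, *Rxra*, *Nr1h3* and *Vdr*, and it had the highest value in 0 of the 10 genes. OP mouse 3 had the highest value in *Ppara*, *Ppard*, *Nr1i2* and *Vdr* and the lowest in 0 of the 10. OP mouse 1 had the lowest value in 3 of the 10, *Pparg*, *Nr1h2* and *Hnf4g*, and the highest in 2. How often each mouse was highest or lowest over all genes was not counted, so these counts cannot be read as a trait of the receptors. In *Ppara* and *Nr1h3* OP mouse 3 and OR mouse 1 stood together at the top, across the groups.

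Ratios within a mouse do not depend on the scaling between mice, and 5 were formed. *Pparg* had from 1.72 to 9.54 times the FPKM of *Ppara* and from 0.627 to 1.22 times that of *Ppard*. *Ppara* had from 0.109 to 0.528 times the FPKM of *Ppard*, *Nr1h2* from 2.28 to 4.43 times that of *Nr1h3*, and *Hnf4a* from 16.1 to 49.3 times that of *Hnf4g*. The ratio *Hnf4a*/*Hnf4g* was 49.3, 33.1 and 25.8 in OP mice 1, 2 and 3 and 16.1, 30.9 and 26.4 in OR mice 1, 2 and 3. Its mean difference OP minus OR was 0.56 on the log2 scale, with a two-sided exact permutation p of 0.3 (0.5 after Benjamini-Hochberg adjustment over the 5 ratios). It was 0.28 without OR mouse 1 and 0.31 without OP mouse 1. The groups overlapped in all 5 ratios, the exact permutation p lay between 0.3 and 1, and the adjusted values between 0.5 and 1.

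For each receptor gene the 2 genes with the most similar pattern over the 6 mice were taken from the 11209 genes that reached 1 FPKM in every mouse. Likeness was Pearson's r of log2(FPKM + 1), given as a description over 6 values from shared libraries, with no test. Every receptor gene had a closest gene at r between 0.983 and 0.999, so a high r does not single out a partner. A shared function was not tested. *Ppara* was closest to *AA414768* (r = 0.997) and to *Pex13* (r = 0.996), a peroxisomal import protein. *Nr1i2* was closest to *Etfrf1* (r = 0.991) and to *Pex16* (r = 0.987), another peroxisome protein, and *Vdr* to *Inpp5e* (r = 0.998) and *Pdzd3* (r = 0.993), a scaffold protein of the brush border. *Hnf4a* was closest to *Prkcd* (r = 0.991) and *Slc16a3* (r = 0.984), and *Hnf4g* to *Fnbp1* (r = 0.999) and *Arhgef17* (r = 0.996). *Pparg* was closest to *Ncapg2* (r = 0.983) and *Uhrf1* (r = 0.977), genes of dividing cells. *Ppard* was closest to *Uqcc2* (r = 0.986) and *Rplp2* (r = 0.972), *Rxra* to *Tmc4* (r = 0.989) and *Gclm* (r = 0.989), *Nr1h2* to *Pou6f1* (r = 0.996) and *Maml1* (r = 0.996), and *Nr1h3* to *Slc25a42* (r = 0.995) and *Phf21a* (r = 0.994).

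Target genes of the receptors were described from lists, by their counts and medians beside those of all genes, for which 0.503% had an unadjusted p below 0.05 and were higher in OP mice and 3.53% were lower. Of the genes in the 6 target lists, 0 passed the thresholds of the study in the limma-trend test. In the PPAR alpha and delta list 18 of 19 genes were tested, with 9 above and 9 below 0 and a median log2 fold change of -0.02 (10 above, 8 below and a median of 0.12 with median-of-ratios scaling). Leaving out each mouse gave medians from -0.16 to 0.19. *Acaa2*, a thiolase of mitochondrial beta-oxidation, was the only one of the 18 with an unadjusted limma-trend p below 0.05 (0.0417, adjusted p = 0.945). Its FPKM was 162.45, 136.54 and 201.42 for OP mice 1 to 3 against 220.33, 210.25 and 220.31 for OR mice 1 to 3, so that the groups did not overlap. *Plin2*, which coats lipid droplets, had the opposite order, at 140.66, 86.52 and 124.68 FPKM for OP mice 1 to 3 against 83.26, 86.2 and 85.01 FPKM for OR mice 1 to 3 (log2 fold change 0.43, standard error 0.19, adjusted p = 0.945). *Acot1*, an acyl-CoA thioesterase, differed by -0.76 on the log2 scale (standard error 0.35) with overlapping groups.

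The promoter window of *Plin2* holds an AGGTCA hexamer at chr4:86670260-86670289 of GRCm38.p6. It is shown because *Plin2* and *Cd36* are the named PPAR targets whose groups did not overlap and whose windows hold the hexamer. In *Plin2* the lowest OP value was 86.52 FPKM and the highest OR value 86.2 FPKM. Of all genes tested, 8.44% had groups without overlap. It is written 5′ to 3′ on the gene's own strand, the minus strand, with the site in capitals, beside the site of *Cd36* at chr5:17836107-17836136, also on the minus strand.
Plin2: tttcaggaccccTGACCTaagtcagacagc
Cd36: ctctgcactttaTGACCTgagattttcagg
In both genes the hexamer reads as AGGTCA on the strand opposite to the gene. It occurred in 5 of 13 windows (38.5%) of the PPAR alpha and delta list. In the PPAR gamma list it occurred in 3 of 9 windows (33.3%), of 2 genes. Among the other target lists the share was 38.9% for PXR, 33.3% for VDR, 11.1% for HNF4 and 0 of 15 windows for LXR. The share was 44.4% for the epithelial markers and 16.3% for all windows. *Acadm*, *Cpt1a*, *Creb3l3* and *Fabp1*, whose groups overlapped, hold it too. A link of the hexamer to the difference between OP and OR mice was not tested.

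The PPAR gamma targets known from adipocytes lay below 0 in all 8 genes tested of 9, with a median log2 fold change of -0.55. All 8 were also below 0 with median-of-ratios scaling and after rescaling to TPM. As deposited, *Cidec* was nearest to 0, at -0.17 (standard error 0.52), with its highest FPKM, 34.58, in OP mouse 1. The direction of each of the 8 genes with a mouse left out was not counted. The median of the list was -0.22 without OR mouse 1, -0.30 without OP mouse 2, -0.83 without OP mouse 3 and -0.96 without OR mouse 2. *Cd36*, a fatty acid transporter that macrophages, endothelium and adipocytes also express, measured 5.94, 1.9 and 7.45 FPKM in OP mice 1 to 3 against 14.37, 10.22 and 12.54 FPKM in OR mice 1 to 3. The highest OP value was under the lowest OR value, with a log2 fold change of -1.26 (standard error 0.39, unadjusted limma-trend p of 0.0139, adjusted p = 0.945). *Pck1*, of gluconeogenesis and glyceroneogenesis, had -0.46 (standard error 0.22) and *Plin4*, a lipid droplet protein, -0.48 (standard error 0.34), both with overlapping groups. Adipocyte markers, of which 5 are also on this list (*Fabp4*, *Adipoq*, *Cidec*, *Plin1* and *Aqp7*), lay mostly below 0 too. The summed FPKM of 8 adipocyte markers was between 22.3 and 145 in OP and between 74.5 and 373 in OR mice, with 6 of the 7 tested below 0, and *Adipoq*, *Plin1*, *Lep*, *Retn* and *Cfd* were listed at 0 in OP mouse 2. Their part in the result was not tested. In bulk tissue, fewer cells of a type and less RNA per cell cannot be told apart.

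Of the 14 LXR targets 12 were tested, with 3 above and 9 below 0 and a median of -0.15 (4 above, 8 below and a median of -0.05 with median-of-ratios scaling). The median was -0.02 without OP mouse 2, -0.07 without OP mouse 1 and -0.36 without OP mouse 3. *Pltp*, a phospholipid transfer protein, measured 6.2, 4.89 and 8.68 FPKM in OP mice 1 to 3 against 11.12, 14.05 and 18.18 FPKM in OR mice 1 to 3. The highest OP value was under the lowest OR value, and the log2 fold change was -1.03 (standard error 0.25, unadjusted limma-trend p of 0.00429, adjusted p = 0.798). *Apoe*, the apolipoprotein of macrophages and liver, measured 107.64, 77.88 and 220.49 FPKM in OP mice 1 to 3 against 229.73, 233.19 and 217.6 FPKM in OR mice 1 to 3, with a log2 fold change of -0.88 (standard error 0.34, unadjusted limma-trend p of 0.0354, adjusted p = 0.945). The OP and OR mice overlapped in *Apoe* through OP mouse 3. *Fasn*, the fatty acid synthase, had -0.44 (standard error 0.27). Macrophage markers lay mostly below 0 as well, with a summed FPKM of 8 markers between 58.1 and 113 in OP and between 116 and 153 in OR mice, 7 of the 8 below 0 at an unadjusted p below 0.05 and none at 0 in any mouse. Their part in the LXR target values was not tested.

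Of the 16 PXR targets 11 were tested, with 5 above and 6 below 0 and a median of -0.08. The sign of this median was not stable, at 0.07 with no filter, 0.16 with FPKM of at least 1 in all 6 mice, 0.13 without OP mouse 2 and -0.26 without OP mouse 1. *Ces2a*, a carboxylesterase, measured 230.26, 57.31 and 111.36 FPKM in OP mice 1 to 3 against 42.7, 98.95 and 51.14 FPKM in OR mice 1 to 3 (log2 fold change 0.91, standard error 0.51). OP mice 1 and 3 were above all OR mice and OP mouse 2 was not, the order seen in *Nr1i2*. A link of *Ces2a* to *Nr1i2* was not tested. *Gsta2* and *Gsta1*, glutathione transferases of near-identical sequence families whose reads may be split, had -0.70 (standard error 0.48) and -0.28 (standard error 0.24). The hepatic targets *Cyp3a11* and *Cyp2b10* had an FPKM of at most 0.08 in every mouse and were not tested.

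Only 4 of the 6 VDR targets were tested, 2 above and 2 below 0, with a median of -0.53 that was 0.39 without OP mouse 2 and 0.13 with no filter. *S100g*, the calcium-binding protein calbindin-D9k, measured 53.21, 0 and 42.33 FPKM in OP mice 1 to 3 against 52.05, 51.27 and 22.88 FPKM in OR mice 1 to 3. It was listed at 0 in OP mouse 2, in which *Vdr* was lowest. OR mouse 3 had the next lowest *Vdr*, at 127.38 FPKM, with *S100g* at 22.88. A link of *S100g* to *Vdr* was not tested. *Cldn2*, a claudin of cation-permeable junctions, measured 5.79, 43.55 and 46.62 FPKM in OP mice 1 to 3 against 65.08, 33.62 and 97.1 FPKM in OR mice 1 to 3, with a log2 fold change of -1.32 (standard error 0.76). *Atp2b1*, a plasma membrane calcium pump, had 0.27 (standard error 0.43).

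The HNF4 targets had a median of 0.21, with 8 of the 9 tested of 11 above 0 and 0 of them at an unadjusted p below 0.05. The median was 0.03 without OR mouse 3, 0.10 without OP mouse 1, 0.38 without OR mouse 2 and 0.40 without OP mouse 3. It was above those of the other target lists with all 6 mice but not without OP mouse 2, when it was 0.32 and that of the VDR targets 0.39. *Vil1*, villin of the brush border, measured 585.19, 450.1 and 344.98 FPKM in OP mice 1 to 3 against 279.77, 480.92 and 313.48 FPKM in OR mice 1 to 3 (log2 fold change 0.37, standard error 0.26). *Myo1a*, a brush border myosin, had 0.19 (standard error 0.17). The median of the 12 epithelial markers was 0.10, with 9 above 0 (*Vil1* is on both lists). Their summed FPKM lay between 15293 and 28585 in OP and between 15797 and 29085 in OR mice. *Car1* made up much of the highest sums, at 14584.45 in OP mouse 1 and 15723.03 in OR mouse 2. The part of the epithelial markers in the HNF4 target values was not tested.

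**Figure D4:**
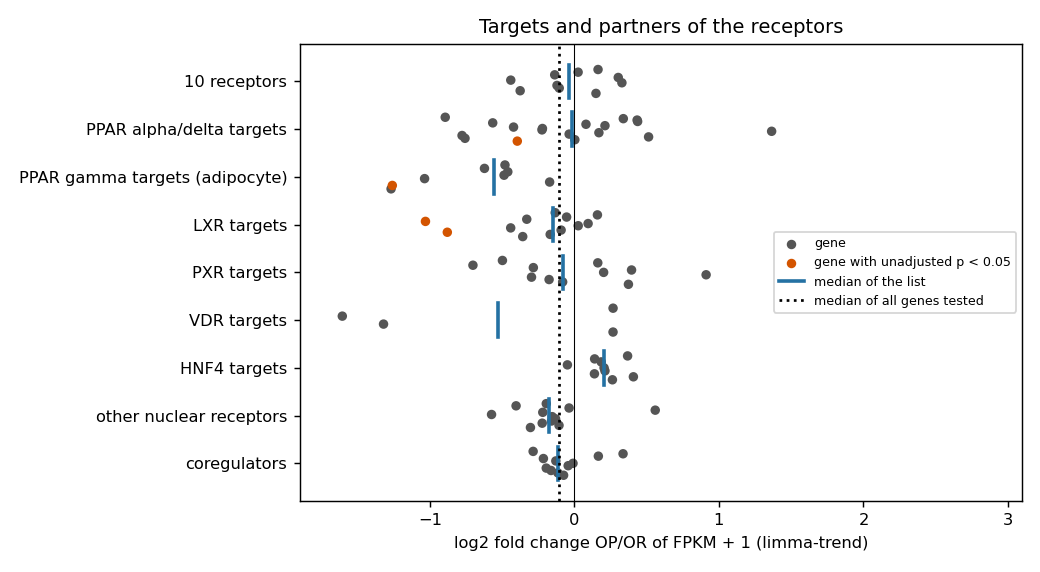
Log2 fold change OP/OR of FPKM + 1 for the tested genes of each list (1 point a gene, orange at an unadjusted limma-trend p below 0.05), with the list median (blue bar) and the median of all genes tested, -0.10 (dotted line). The 4 orange points all lie below 0, and the list median of the HNF4 targets is 0.21.

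Related receptors and coregulators were examined as 2 further lists. Of 16 other nuclear receptors 12 were tested, 1 above and 11 below 0 (3 and 9 with median-of-ratios scaling), with a median of -0.18 and 0 of them at an unadjusted p below 0.05. *Thra*, a thyroid hormone receptor, had -0.40 (standard error 0.22) and *Rora* -0.22 (standard error 0.17). *Nr1h4*, the bile acid receptor FXR, was named after its values were seen and measured 112.03, 66.91 and 128.51 FPKM in OP mice 1 to 3 against 134.82, 90.53 and 126.09 FPKM in OR mice 1 to 3, with OP mouse 2 again lowest. All 11 coactivators and corepressors were tested, 2 above and 9 below 0, with a median of -0.11 as deposited, and 7 above and 4 below 0 with a median of 0.02 after median-of-ratios scaling. *Ncoa1* had -0.19 (standard error 0.17) and *Med1* -0.16 (standard error 0.17).

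The summed FPKM of the remaining marker lists was between 1416.5 and 2264 in OP and between 1753 and 3239 in OR mice for smooth muscle (8 genes), between 89.6 and 130 in OP and between 225 and 377 in OR mice for fibroblasts (7 genes), and between 11.0 and 18.6 in OP and between 21.1 and 37.7 in OR mice for blood endothelium (7 genes). The sums of OP and OR mice did not overlap for macrophages, fibroblasts and blood endothelium, and overlapped for epithelium, smooth muscle and adipocytes. The summed FPKM of the 10 receptor genes was between 725 and 898 in OP and between 707 and 795 in OR mice, overlapping.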

How the data were processed

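Colon RNA of 3 OP and 3 OR mice was sequenced, 1 library a mouse. The deposited FPKM values were made by the authors: reads were filtered with SOAPnuke 1.5.6, aligned to a reference gene set with Bowtie2 (2.2.5 in the labels, 2.3.4.3 in the methods) and quantified with RSEM (1.2.12 and 1.3.1). The submitters' processing notes name HISAT2 2.0.4 and GRCm39. Values have 2 decimals and are gene totals, so isoforms and counting error are not resolved. Groups came from the labels.

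From these, log2(FPKM + 1) of genes reaching 0.5 FPKM in 3 or more mice was tested with limma-trend (limma 3.58.1, R 4.3.3), OP against OR, without covariates, with Benjamini-Hochberg adjustment over 13520 genes, and tested on simulated data. DESeq2, the authors' tool, needs counts and was not run. Permutation tests were exact (SciPy 1.17.1). The members and the lists were chosen with earlier results of these data known, and the promoter motifs with the sequences in view. Named are the 10 receptor genes, the 3 genes of each target, receptor or coregulator list with the smallest p, the closest genes, and genes said to be chosen after their values were seen. Some items that this rule names are not reported here. Of the marker lists, sums are given. Sequences are from RefSeq (GRCm38.p6).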

Additional observations from a re-analysis of the deposited data

How the results depend on the processing

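The number of receptor genes called was 0 under all 15 alternatives run, and the lowest adjusted p of any of them was 0.515. In 127 of 140 combinations of a receptor gene and an alternative the direction was kept, and *Ppard*, *Nr1i2*, *Hnf4a* and *Hnf4g* kept it in all. With median-of-ratios scaling *Pparg* had a log2 fold change of 0.000565, *Nr1h2* of 0.0314 and *Nr1h3* of 0.00842, and with array weights *Rxra* had -0.0524. Leaving out each mouse gave -1.03 to 0.044 for *Ppara*, -0.079 to 0.212 for *Rxra*, -0.406 to 0.144 for *Nr1h3* and -0.021 to 0.457 for *Vdr*. For the others it gave 0.195 to 0.478 for *Ppard*, -0.208 to -0.036 for *Pparg*, -0.195 to -0.042 for *Nr1h2*, 0.202 to 0.545 for *Nr1i2*, 0.095 to 0.234 for *Hnf4a* and -0.521 to -0.134 for *Hnf4g*. The count of receptor genes at an unadjusted p below 0.05 ranged from 0 to 2 with each mouse left out, 2 (*Ppard*, *Nr1i2*) without OP replicate 2 and 1 (*Ppara*) without OP replicate 3. The count of all genes called was 3, and 0 with a pseudocount of 0.1, with no filter, with FPKM of at least 1 in all 6 mice, with median-of-ratios scaling, after rescaling to TPM and at a q-value below 0.05, 5 with array weights and from 0 to 1 with each mouse left out. The median of the blood endothelium markers was -1.28 with a pseudocount of 0.1. That of the VDR targets ranged from -0.82 to 0.39 with each mouse left out. The log2 difference of *Pparg*/*Ppara* ranged from -0.243 to 0.991 and that of *Nr1h2*/*Nr1h3* from -0.228 to 0.252, with -0.687 to -0.312 for *Pparg*/*Ppard*, -1.316 to -0.402 for *Ppara*/*Ppard* and 0.284 to 0.775 for *Hnf4a*/*Hnf4g*. The cause was not tested. With the replicate block 0 genes were called, 0 of them receptors. The numbers are a naming of different mice, and the deviations of same-numbered mice correlated at -0.144, -0.157 and 0.0709 across genes. Those of differently numbered mice reached 0.537 for OP mouse 1 with OR mouse 2 and -0.464 for OP mouse 1 with OR mouse 3. They were 0.417 for OP mouse 3 with OR mouse 1 and 0.393 for OP mouse 2 with OR mouse 3. Genes are not independent replicates. The unknown depth and 3 mice a group limit the precision. The 95% intervals of *Ppara* and *Nr1h3* include differences of 1.5-fold in both directions. Those of *Ppard*, *Nr1i2* and *Vdr* include it upward, reaching ratios OP/OR of FPKM + 1 of 1.65, 1.77 and 1.75. That of *Hnf4g* includes it downward, reaching 0.503.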

Other observations

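Several target genes and the epithelial marker *Car1* had values that stood out in 1 or 2 mice. The genes given here were chosen after their values were seen. *Creb3l3*, a membrane-bound transcription factor of lipid metabolism, measured 148.5, 23.04 and 9.31 FPKM in OP mice 1 to 3 against 3.33, 72.37 and 5.83 FPKM in OR mice 1 to 3. *Car1*, a carbonic anhydrase of colonocytes, was likewise high in OP mouse 1 (14584.45) and OR mouse 2 (15723.03) and had between 1054.43 and 6338.65 in the other 4 mice. *Cyp24a1*, the vitamin D hydroxylase that VDR induces, had 6.94 in OP mouse 1 and at most 0.18 in the other 5 mice, whereas *Vdr* was highest, at 232.83, in OP mouse 3. *Apoa4* had 4.02 in OP mouse 1, 0.68 in OR mouse 2 and at most 0.24 in the other 4. The sterol exporters *Abcg5* and *Abcg8*, which LXRs induce, had 2.36 and 1.53 in OP mouse 3 and at most 0.71 in the other 5 mice. *Vnn1*, a PPAR alpha target, had 2.56 in OP mouse 2, in which *Ppara* was lowest, and between 25.76 and 43.33 in the other 5 mice. Among these 5 the order differed from that of *Ppara*. OP mouse 1, with the next lowest *Ppara* (11.23), had 40.07 for *Vnn1*. The highest *Vnn1*, 43.33, was in OR mouse 2, where *Ppara* was 13.09. A link of *Vnn1* to *Ppara* was not tested. *Trpv6*, a calcium channel of the intestine, had at most 0.02 in every mouse where *Vdr* lay between 119.55 and 232.83.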
